A study of Rattus norvegicus with 16 samples.

Results

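The genes of the collagen chains were examined in denervated and naïve rat skin. Every gene whose symbol is Col, a number, the letter a and a number was a member, and 41 of the 14217 genes measured met this rule. They were sorted by the kind of molecule their chains build into 11 fibrillar chains, 5 basement membrane chains of type IV, 9 chains of fibril-associated collagens (FACIT) and 16 other chains. Of the 45 chains written down by class, Col4a3, Col21a1, Col6a4 and Col28a1 were not analysed here. The rule itself uses gene names only and no measured value, though the family was picked for study with earlier results of these data known.

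Collagens are triple-helical proteins of the extracellular matrix. Fibrillar collagens of types I, III and V assemble into the fibrils that give the dermis its strength, and FACIT collagens sit on the surface of those fibrils. Type IV forms the sheet-like network of basement membranes, type VI forms beaded filaments around cells, type VII makes the anchoring fibrils that hold the epidermis to the dermis, and type XVII is a transmembrane collagen of the hemidesmosomes of basal keratinocytes. Dermal fibroblasts make most of the fibrillar and type VI collagen of skin, while keratinocytes supply type XVII and much of type VII.

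The arrays came from dorsal hairy skin of adult female Sprague-Dawley rats, with 1 Affymetrix rat whole-genome array per sample. Naïve rats had no surgery (n = 6), and denervated rats were sampled 7 days (n = 5) or 14 days (n = 5) after dorsal and lateral cutaneous nerves of the left trunk had been cut. The skin was taken from the rostral denervated strip or its counterpart in naïve rats. Each sample also held the cutaneous trunci muscle, whose own nerve was left intact, so the tissue is a mixture of epidermis, hair follicles, dermis, vessels and muscle. The labels do not mention pooled animals, and the sources disagree on body weight and on the caudal nerves cut. The values are on the log2 scale, where a difference of 1 is a doubling of signal, and the unit applies to all levels and differences given here.

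Array medians lay between 6.25 and 6.31, and no arrays held identical values. Markers of the labelled tissue were present, with the keratinocyte gene Krt15 at a mean of 12.08 at 14 days and 13.14 in naïve skin, and the muscle gene Actn3 at 12.19 and 13.27 in the same groups. The naïve arrays differed most among themselves, with a lowest correlation of 0.931 across probesets, against 0.977 at 7 days and 0.993 at 14 days. Naïve replicates 1 and 2 had hair follicle marker scores (8 genes, mean deviation from each gene's average) of 1.95 and 2.15, while the other naïve arrays lay between -4.24 and -3.88. Scores ran from -0.84 to 1.71 at 7 days and from 1.92 to 2.05 at 14 days. The fibroblast score of naïve replicate 4 was -1.18 and that of replicate 5 was -1.80, with -0.36 to 0.13 in the remaining naïve arrays. The beta-actin signal at the 3 prime end exceeded that of the middle probeset by 0.962, 1.20 and 0.848 in naïve replicates 4, 5 and 6, and by at most 0.519 on the other 13 arrays. Against the 5 prime probeset the excess was 0.499, 0.142 and 0.645 in these replicates and 0.465 to 0.736 on the other 13. For GAPDH, 3 against 5 prime, it was 0.293, 0.307 and 0.338, inside the 0.234 to 0.423 of the others. RNA quality was not tested further.

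At 7 days after denervation, 13 collagen genes rose, 3 fell and 25 did not pass the test (limma, adjusted p under 0.05). Over all genes, 7.85% were called higher and 2.66% lower, so the 31.7% of members called higher stood above that background. Median log2 fold change was 0.14 over the members and -0.02 over all genes. By class, 3 of 11 fibrillar, 2 of 5 basement membrane, 3 of 9 FACIT and 5 of 16 other chains were higher, and the differences between classes were not tested. With each array centred on its own median, 13 members were higher and 6 lower, where 6.69% and 10.5% of all genes were called. At 14 days, 8 members rose, 4 fell and 29 did not pass, where all genes had 8.95% higher and 14.6% lower. Both comparisons used the same naïve arrays.

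**Figure D1:**
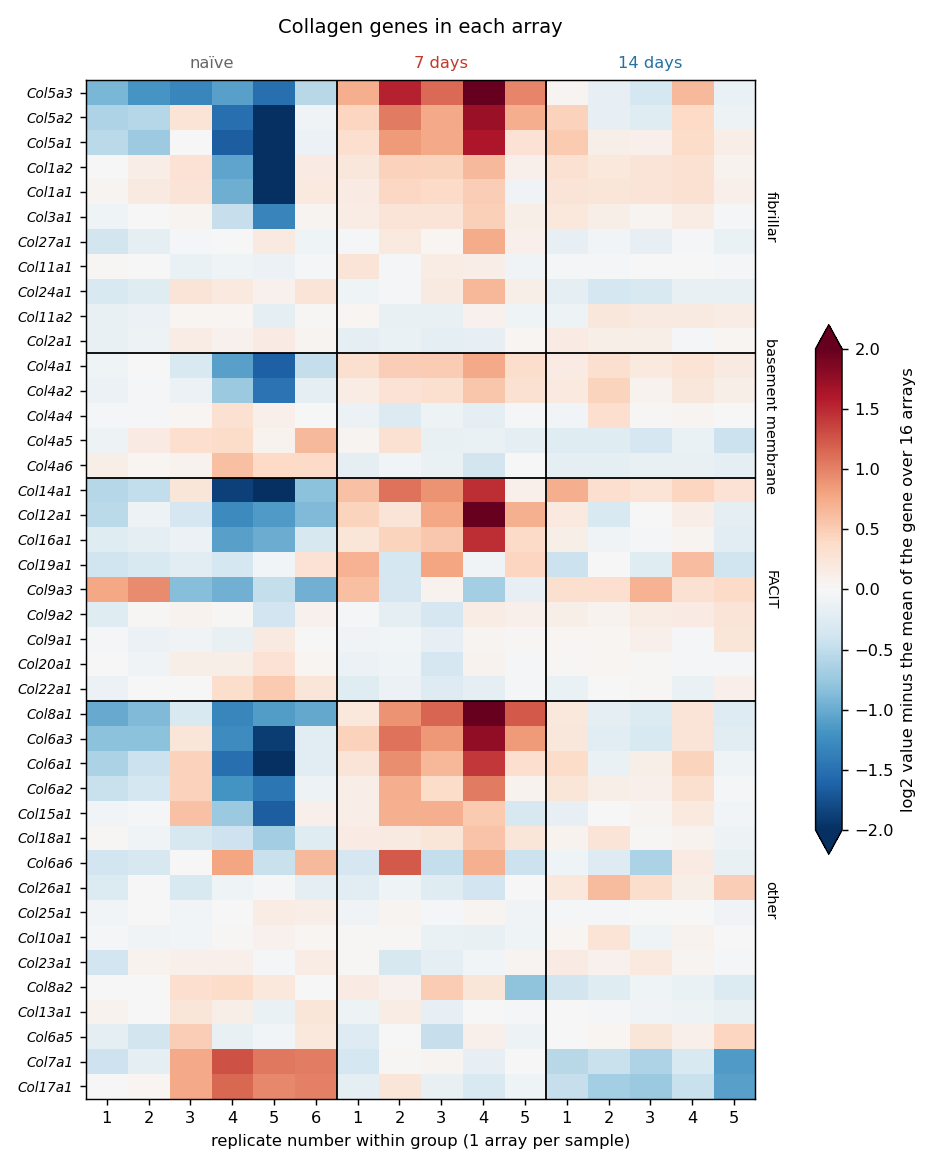
Each row is 1 of the 41 collagen genes, grouped by class and sorted within a class by the 7 day difference, and each column is 1 of the 16 arrays. Colour gives the log2 value minus the mean of that gene over all arrays, cut off at 2 in either direction, and 7 day replicate 4 was the highest of all arrays for 18 members while naïve replicate 5 was the lowest for 16.

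**Figure D2:**
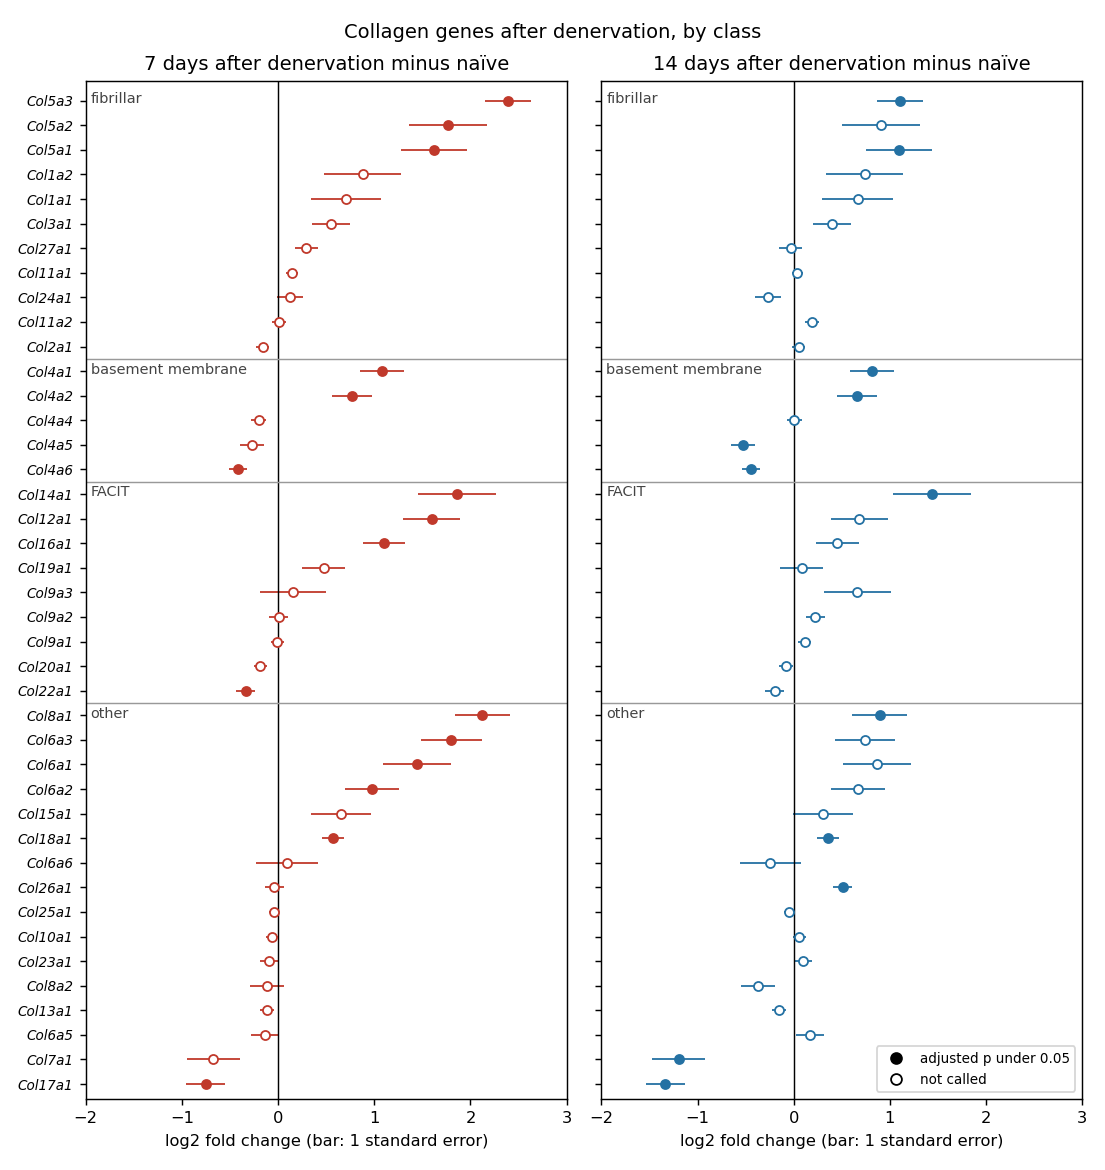
Points give the log2 fold change against naïve skin at 7 days (left) and 14 days (right) with 1 standard error, and filled points passed an adjusted p of 0.05. The 13 filled points to the right of 0 at 7 days are Col5a1, Col5a2, Col5a3, Col6a1, Col6a2, Col6a3, Col8a1, Col12a1, Col14a1, Col16a1, Col18a1, Col4a1 and Col4a2. Each of them had a lower mean at 14 days than at 7 days, which choosing genes that were high at 7 days favours. Of all 41 members 29 were lower at 14 than at 7 days. Only Col5a3, Col8a1 and Col6a3 were called lower in that comparison.

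Type V, a minor fibrillar collagen that sets the diameter of type I fibrils, gave the largest increase of the family at 7 days. Col5a3 was at 10.30, 11.13, 10.72, 11.70 and 10.56 in the 7 day arrays, against 8.07 (lowest), 8.45 (median) and 9.03 (highest) in naïve arrays. All 7 day arrays lay above all naïve arrays, as 3.31% of all genes did. The log2 fold change was 2.39 (standard error 0.24, adjusted p = 0.000191), which is 5.26-fold and ranked 22 of 14217 genes. Col5a2 was at 11.44, 12.05, 11.78, 12.74 and 11.74 at 7 days, against 8.48, 10.43 and 11.29 in naïve skin, again with no overlap. It rose by 1.77 (standard error 0.40, adjusted p = 0.0139). Col5a1 was at 10.70, 11.22, 11.12, 11.99 and 10.65 at 7 days, against 8.28, 9.73 and 10.38 in naïve skin. The groups did not overlap, and the gene rose by 1.62 (standard error 0.34, adjusted p = 0.00997). Without naïve replicates 4 and 5 the differences were 2.29, 1.18 and 1.11 for Col5a3, Col5a2 and Col5a1, and all passed (adjusted p = 0.00348, 0.031 and 0.0279). With the 14 day arrays left out of the fit, Col5a3 passed (adjusted p = 0.00215) and Col5a2 and Col5a1 did not (adjusted p = 0.0658 and 0.0585). That fit called 1.86% of all genes higher, and Col14a1, Col16a1, Col4a1, Col4a2, Col6a1 and Col6a2 were lost in it as well, while Col8a1, Col6a3, Col12a1 and Col18a1 passed.

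The chains of the main dermal fibrils, types I and III, were not called at 7 days in the fit over all arrays. Col1a1 was at 13.71, 13.96, 13.92, 14.03 and 13.47 in 7 day arrays, against 11.24, 13.66 and 13.80 in naïve arrays. Only naïve replicates 4 and 5, at 12.56 and 11.24, stood clearly below the rest, and the groups overlapped. The difference was 0.71 (95% interval -0.07 to 1.49, adjusted p = 0.207), and Col1a2, its partner chain, differed by 0.88 (95% interval 0.03 to 1.73, adjusted p = 0.156). Col3a1 was at 13.65, 13.76, 13.76, 13.98 and 13.61 at 7 days, against 12.17, 13.45 and 13.55 in naïve skin. Its arrays did not overlap, but the difference of 0.55 missed the threshold (adjusted p = 0.085). Without naïve replicates 4 and 5 the differences were 0.11 for Col1a1, 0.23 for Col1a2 and 0.25 for Col3a1. Naïve replicate 5 alone moved them by much of that, with 0.34, 0.47 and 0.34 in its absence. Without naïve replicates 1 and 2, Col1a2 and Col3a1 passed, at 1.17 and 0.67 (adjusted p = 0.0478 and 0.0279), and Col1a1 was at 0.98 (adjusted p = 0.0641), in a fit where 19% of all genes were higher. The highest value on any array was 14.39, so these 3 genes lay close to the top of the scale, where the signal of an array can flatten. Whether it did so here was not tested.

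Type VI, the beaded filament collagen of the space around cells, had 3 chains higher at 7 days out of 5 measured. Col6a3 was at 11.41, 12.03, 11.81, 12.71 and 11.79 at 7 days, against 9.04, 10.12 and 11.19 in naïve skin. No naïve array reached the 7 day range, and the gene rose by 1.80 (standard error 0.32, adjusted p = 0.00441). Col6a1 (11.60 to 12.75 at 7 days, 9.34 to 11.80 in naïve skin) rose by 1.44 and Col6a2 (9.14 to 10.12 and 7.63 to 9.54) by 0.98, with adjusted p = 0.0194 and 0.0392. For both, naïve replicate 3 lay inside the 7 day range. Col6a1 and Col6a2 no longer passed without naïve replicates 4 and 5 (0.93 and 0.57, adjusted p = 0.0657 and 0.163). Col6a1 was also lost without 7 day replicate 4 (adjusted p = 0.0637), and Col6a2 when any of 10 arrays was left out (highest adjusted p = 0.114). The related chains Col6a5 and Col6a6 differed by -0.14 and 0.09 and were not called.

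Among the FACIT collagens, Col14a1, Col12a1 and Col16a1 rose at 7 days. Col14a1 encodes a chain that binds fibrils of type I collagen. Its 7 day values were 10.33, 10.83, 10.65, 11.23 and 9.86, against 7.06, 9.06 and 9.99 in naïve skin, and only naïve replicate 3 reached the 7 day range. The rise was 1.86 (standard error 0.41, adjusted p = 0.0117). Col12a1, a fibril-associated chain of tendon, muscle and skin, was at 7.47, 7.29, 7.81, 9.26 and 7.74 at 7 days, against 5.76, 6.32 and 6.93 in naïve skin. No arrays overlapped, 7 day replicate 4 stood well above the others, and the rise was 1.60 (adjusted p = 0.00587). It remained 1.26 without that array, with adjusted p of at most 0.0166 over all single arrays left out. Col16a1 rose by 1.10 (adjusted p = 0.00767), with 9.83 to 11.08 at 7 days and 8.52 to 9.48 in naïve skin. Col22a1, a chain of tissue junctions, fell by 0.34 (adjusted p = 0.0434), but it lay among the 25% of genes with the lowest means and the call was lost in 12 of the 16 fits that left out 1 array.

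Col8a1, a short-chain collagen of vessel walls and of the matrix around endothelial cells, had the next largest rise after Col5a3. Its 7 day values were 7.66, 8.36, 8.63, 9.85 and 8.69, against 6.15, 6.44 and 7.15 in naïve skin. All 7 day arrays were above all naïve arrays, and the log2 fold change was 2.12 (standard error 0.29, adjusted p = 0.00121), or 4.35-fold. The other short-chain members, Col8a2 and Col10a1, differed by -0.11 and -0.06. Of the multiplexins, which are collagens of basement membrane zones, Col18a1 rose by 0.57 (adjusted p = 0.00827), with 9.32 to 9.72 at 7 days and 8.46 to 9.18 in naïve skin. Col15a1 differed by 0.65 and was not called (adjusted p = 0.172), and its difference was 0.21 without naïve replicates 4 and 5.

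**Figure D3:**
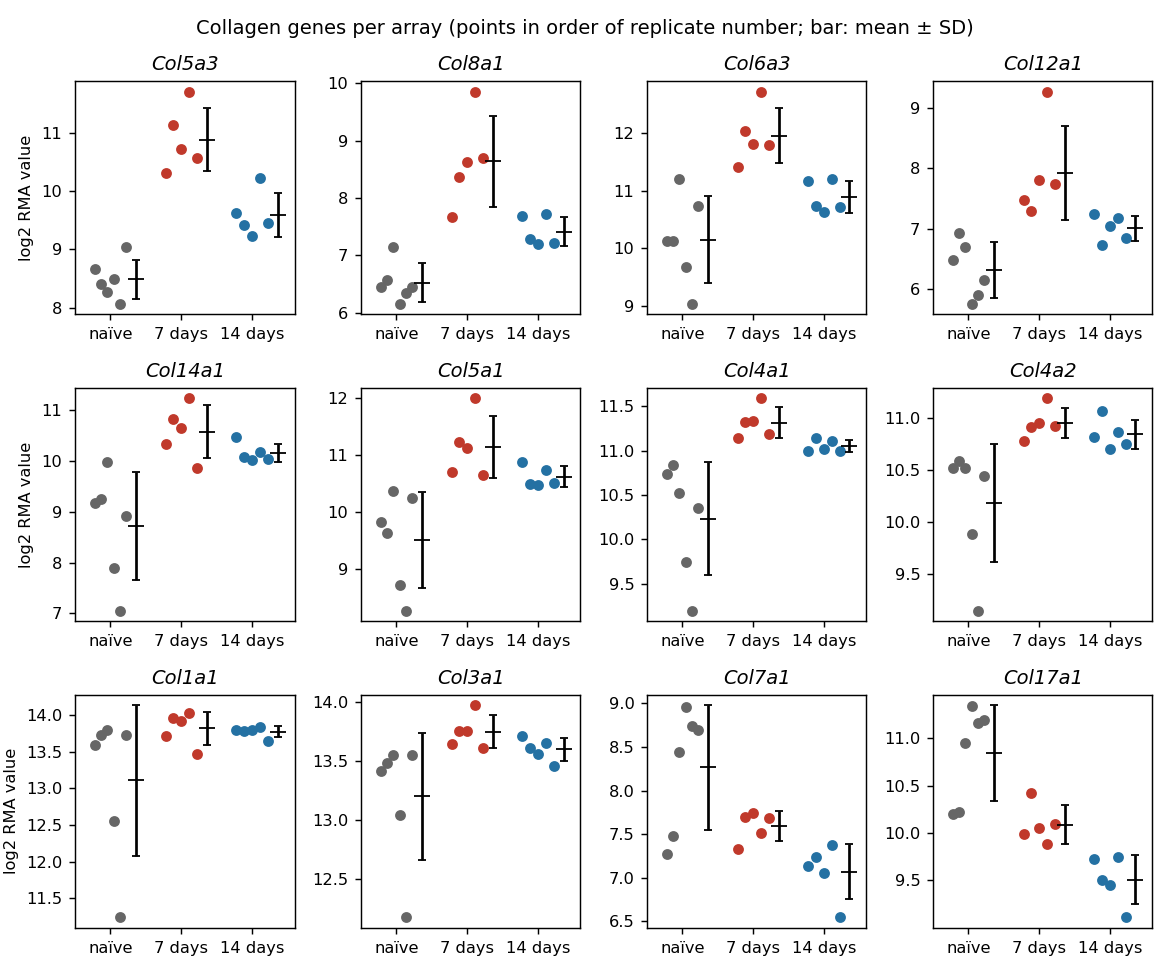
Log2 values of 12 collagen genes in each array, with naïve, 7 day and 14 day arrays from left to right and the points in order of replicate number; the bar beside each group is the mean with 1 SD (n = 6, 5 and 5). Col5a3, Col8a1, Col6a3 and Col12a1 peak at 7 days, Col1a1 and Col3a1 lie between 13.41 and 14.03 except in naïve replicates 4 and 5, and Col7a1 and Col17a1 are lowest at 14 days.

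The type IV chains moved in opposite directions. Col4a1 and Col4a2, the pair found in nearly all basement membranes, rose at both times. Col4a1 was at 11.14, 11.33, 11.33, 11.59 and 11.18 at 7 days, against 9.20, 10.44 and 10.84 in naïve skin, with no overlap. It rose by 1.08 (standard error 0.23, adjusted p = 0.0105), and by 0.70 without naïve replicates 4 and 5 (adjusted p = 0.00756). Col4a2 rose by 0.77 (adjusted p = 0.0314) and by 0.44 without those arrays (adjusted p = 0.0214), while the call was lost without naïve replicate 4 alone or 7 day replicate 3 or 4 (highest adjusted p = 0.0896). Col4a6, a chain of epithelial basement membranes that pairs with Col4a5, was at 5.50, 5.64, 5.55, 5.33 and 5.69 at 7 days, against 5.74, 5.94 and 6.28 in naïve skin. All 7 day arrays were below all naïve arrays, as 1.35% of all genes were. The gene fell by 0.42 (standard error 0.10, adjusted p = 0.0143), and by 0.30 without naïve replicates 4 and 5, where it no longer passed (adjusted p = 0.0668). Col4a5 differed by -0.27 at 7 days (adjusted p = 0.149) and Col4a4 by -0.20 (adjusted p = 0.0982).

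At 14 days the pair Col4a1 and Col4a2 stayed above naïve skin. Col4a1 was at 10.99 to 11.14 at 14 days, against 9.20, 10.44 and 10.84 in naïve arrays, and Col4a2 was at 10.82, 11.07, 10.71, 10.87 and 10.75, against 9.15, 10.48 and 10.59. All 14 day arrays of both genes lay above all naïve arrays, as for 3.69% of all genes. The rises were 0.82 (adjusted p = 0.0238) and 0.66 (adjusted p = 0.0359). Leaving out naïve replicate 4 ended both calls (adjusted p = 0.0571 and 0.0814), as did leaving out 14 day replicate 2, and Col4a2 was lost without any single 14 day array. Col4a5 was at 8.16, 8.15, 8.05, 8.25 and 7.97 at 14 days, against 8.30, 8.64 and 9.05 in naïve skin. All 14 day arrays lay below all naïve arrays, as for 6.66% of all genes, and the gene fell by 0.53 (standard error 0.12, adjusted p = 0.00969). Col4a6 fell by 0.44 at 14 days (adjusted p = 0.00778), with 5.49 to 5.55 at 14 days and 5.74 to 6.28 in naïve skin. Both decreases passed with each array left out in turn.

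Col4a1 and Col4a2 lie next to each other on chromosome 16 and are read in opposite directions. The 76 bases between their start sites, at chr16:84885521-84885596 of the GRCr8 build, are shown because 1 stretch of DNA serves both genes of the pair that rose together. The sequence is from RefSeq, on the plus strand, in the direction of Col4a1, and the capitals mark the GC box letters GGGCGG on either strand.
Col4a1 and Col4a2: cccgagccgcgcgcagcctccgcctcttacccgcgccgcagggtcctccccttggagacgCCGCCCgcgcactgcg
The stretch was 78.95% G or C and held 1 match to GGGCGG and none to the CCAAT box or the TATA box. The 4 other pairs of collagen genes with no coding gene between them did not all move alike. Col6a1 and Col6a2 on chromosome 20 were at 1.44 and 0.98 at 7 days, and Col3a1 and Col5a2 on chromosome 9 at 0.55 and 1.77. Col6a6 and Col6a5 on chromosome 8 were at 0.09 and -0.14, and Col9a1 and Col19a1 on chromosome 9 at -0.01 and 0.48, with none of these last 4 genes called.

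Upstream windows were compared for the members with the largest changes. RefSeq windows of GRCr8 were matched for 32 of the 41 members, and the 250 bases before the start were searched on both strands for 4 motifs. These were CCAAT (the CCAAT box), GGGCGG (the GC box), TATAAA (the TATA box) and TGANTCA (the AP-1 site), and none of them contains another. The 150 bases before the start site are shown for the pair with the largest rises at 7 days and the pair with the largest decreases at 14 days, with capitals at every match in either direction.
Col5a3, chr8:27625949-27626098, minus strand: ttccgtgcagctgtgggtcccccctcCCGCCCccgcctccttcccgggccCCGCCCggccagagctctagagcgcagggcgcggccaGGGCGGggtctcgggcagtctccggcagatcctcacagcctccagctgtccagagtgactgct
Col8a1, chr11:56246632-56246781, plus strand: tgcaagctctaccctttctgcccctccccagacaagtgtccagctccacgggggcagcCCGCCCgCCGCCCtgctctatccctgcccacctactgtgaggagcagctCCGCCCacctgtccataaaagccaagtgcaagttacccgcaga
Col7a1, chr8:118483214-118483363, plus strand: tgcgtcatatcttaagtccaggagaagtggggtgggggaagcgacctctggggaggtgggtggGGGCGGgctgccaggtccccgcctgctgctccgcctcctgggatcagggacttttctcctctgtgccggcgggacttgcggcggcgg
Col17a1, chr1:256518858-256519007, minus strand: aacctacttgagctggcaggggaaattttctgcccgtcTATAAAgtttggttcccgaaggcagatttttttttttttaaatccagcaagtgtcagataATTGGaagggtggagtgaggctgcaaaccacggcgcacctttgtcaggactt
Col5a3 and Col8a1 each showed 3 matches to GGGCGG in this stretch and Col7a1 showed 1. Col17a1 had none, with 1 match each to TATAAA and to CCAAT, the second of them in reverse. GGGCGG was in the windows of 18 of 32 members (56.25%), of 7 of the 10 matched members that rose at 7 days (70%) and of 3 of 4 that fell at 14 days (75%), against 32.39% of 27457 windows of all genes. CCAAT was in 28.12% of member windows and 34.29% of all windows, TATAAA in 12.5% and 13.09%, and TGANTCA in 3.125% and 6.363%. The G and C content of the windows was not held equal, and a match is a description of letters only.

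At 14 days the other increases were in Col14a1, Col5a3, Col5a1, Col8a1, Col18a1 and Col26a1. Col14a1 was at 10.47, 10.09, 10.02, 10.18 and 10.04, against 7.06, 9.06 and 9.99 in naïve skin, so that the highest naïve array fell just short of the lowest 14 day array. It rose by 1.44 (standard error 0.41, adjusted p = 0.0238), and leaving out naïve replicate 4 or 14 day replicate 1 ended the call (highest adjusted p = 0.0571). Col5a3 was at 9.63, 9.42, 9.23, 10.22 and 9.45 at 14 days, against 8.07, 8.45 and 9.03 in naïve skin. It rose by 1.10 (adjusted p = 0.00805), with no overlap, and passed with each array left out. Col5a1 rose by 1.10 (adjusted p = 0.0334) and Col8a1 by 0.90 (adjusted p = 0.036), both without overlap, but the calls were lost in 7 and 8 of the 16 fits with 1 array left out (highest adjusted p = 0.0785 and 0.0806). Col18a1 rose by 0.35 (adjusted p = 0.0387) and was lost in 8 such fits.

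Col26a1 was the only member that rose at 14 days but was not called at 7 days. It encodes a small collagen first described in testis and ovary, and it lay among the 25% of genes with the lowest means. Its 14 day values were 5.46, 5.89, 5.59, 5.36 and 5.75, against 4.95, 5.11 and 5.25 in naïve skin. The 14 day arrays were all above the naïve arrays and the gene rose by 0.51 (standard error 0.10, adjusted p = 0.00436). The 7 day arrays (4.86 to 5.24) differed from naïve skin by -0.04. The direct comparison of 14 with 7 days gave 0.55 (adjusted p = 0.00469).

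Chains that were not called at 14 days included those of types I, III and VI. Col1a1 differed by 0.66 (95% interval -0.11 to 1.44), Col1a2 by 0.74 (-0.11 to 1.58) and Col3a1 by 0.40 (-0.02 to 0.82). Col6a1, Col6a2 and Col6a3 differed by 0.87, 0.67 and 0.74 (adjusted p = 0.0837, 0.0938 and 0.0965), Col5a2 by 0.91, Col12a1 by 0.68 and Col15a1 by 0.31. Leaving out naïve replicate 5 alone gave 0.29 for Col1a1, 0.32 for Col1a2, 0.19 for Col3a1, 0.57 for Col5a2 and 0.04 for Col15a1. Without naïve replicates 4 and 5 the type VI chains Col6a1, Col6a2 and Col6a3 were at 0.35, 0.26 and 0.35. In that fit 4 members were higher (Col5a3, Col4a1, Col4a2 and Col26a1) and 3 lower at 14 days, where 1.77% and 4.98% of all genes were called. The same step left 11 members higher and 0 lower at 7 days, with 2.43% and 0.324% of all genes called. The count of 8 members higher at 14 days fell to 2 without naïve replicate 4, to 3 without 14 day replicate 2, to 4 without 14 day replicate 1, 3 or 4, and to 5 without naïve replicate 5 or 14 day replicate 5. Calls fell over all genes too, with 8.95% higher with all arrays, 3.14% without naïve replicate 4 and 3.85% without 14 day replicate 2, and between 3.72% and 4.83% in the other fits named.

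Col17a1 and Col7a1, which fasten the epidermis to the dermis, fell furthest. Col17a1 was at 9.72, 9.50, 9.45, 9.75 and 9.11 at 14 days, against 10.20, 11.05 and 11.34 in naïve skin. All 14 day arrays lay below all naïve arrays, and the gene fell by 1.34 (standard error 0.20, adjusted p = 0.0016), a 2.52-fold decrease that passed with each array left out. At 7 days it was at 9.99, 10.42, 10.05, 9.88 and 10.10, against the same naïve values, and fell by 0.75 (adjusted p = 0.0312). Naïve replicates 1 and 2, at 10.20 and 10.22, lay inside the 7 day range, and the 7 day call was lost without naïve replicate 4, 5 or 6 or 7 day replicate 1, 3 or 4 (highest adjusted p = 0.0882). Col7a1 was at 7.13, 7.23, 7.06, 7.37 and 6.55 at 14 days, against 7.27, 8.57 and 8.96 in naïve skin. Naïve replicate 1, at 7.27, lay inside the 14 day range, so the groups overlapped, and naïve replicate 2, at 7.48, lay just above that range. The other naïve arrays were at 8.45 to 8.96. Col7a1 fell by 1.20 at 14 days (standard error 0.27, adjusted p = 0.00969) and differed by -0.67 at 7 days (adjusted p = 0.119).

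The same division of the naïve arrays was seen in the hair follicle markers, and its part in these decreases was not tested. Without naïve replicates 1 and 2, Col17a1 fell by 1.65 and Col7a1 by 1.64 at 14 days (adjusted p = 2.8e-06 and 4.9e-06). At 7 days they differed by -1.07 and -1.12 (adjusted p = 0.000192 and 0.000232). Those were the lowest naïve arrays of both genes, so leaving them out was bound to enlarge the decreases. That fit called 21.8% of all genes lower at 14 days and 16.4% at 7 days. Without naïve replicates 4 and 5, Col7a1 no longer passed at 14 days. Col17a1 then passed at 14 days but not at 7 days, where 4.98% and 0.324% of all genes were lower. The hair follicle score was 1.92 to 2.05 in all 14 day arrays, and only replicates 1 and 2 of the naïve arrays came near those values. The score therefore largely follows the groups, and a fit with it cannot separate it from the time after denervation. With this score in the limma fit as a covariate, the 14 day difference was -0.76 for Col17a1 (adjusted p = 0.0343) and -0.37 for Col7a1 (adjusted p = 0.299). This fit left 0 members higher and only Col17a1 lower at 14 days, with 0.45% and 1.24% of all genes called. Of 8 measured hair follicle markers, 7 were higher at 14 days and none at 7 days. Some basal keratinocyte markers fell as well, with 2 of 7 lower at 7 days and 4 of 7 at 14 days, and their score was 0.14 to 0.41 in naïve skin, -0.54 to 0.05 at 7 days and -0.42 to -0.12 at 14 days. Their part in the decreases was not tested. In whole tissue, fewer cells of a type and less RNA per cell cannot be told apart.

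**Figure D4:**
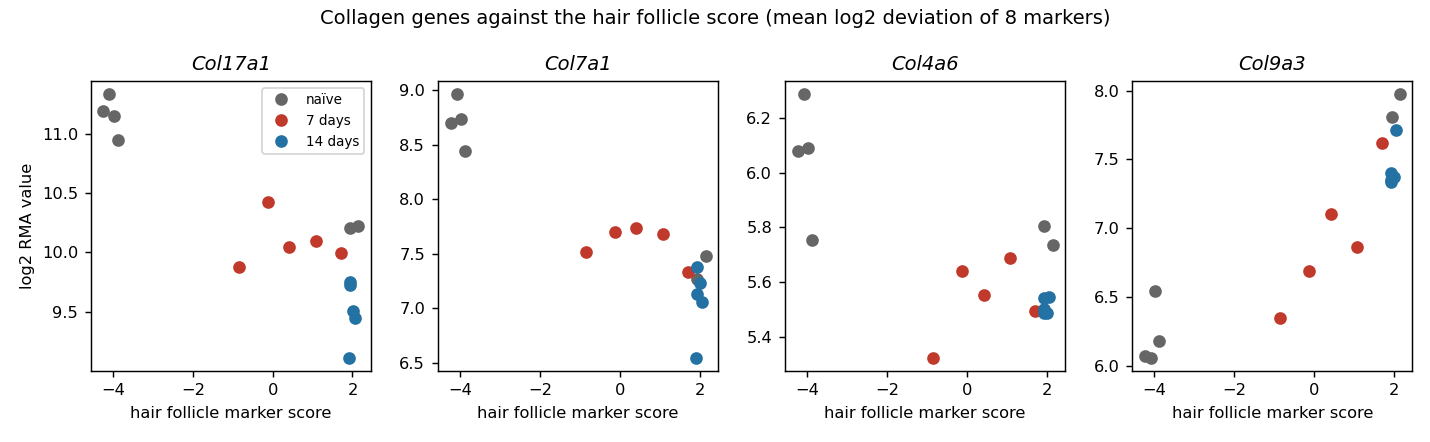
Each point is 1 array, with the score of 8 hair follicle markers on the x axis, the log2 value of the gene on the y axis and colour for the group. Naïve replicates 1 and 2 lie at the right with the 14 day arrays, near scores of 2, where Col17a1 and Col7a1 are lower and Col9a3 is higher than in the other naïve arrays.

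Col9a3 divided the naïve arrays the opposite way. It encodes a chain of type IX, a FACIT collagen best known from cartilage. It was at 7.81 and 7.97 in naïve replicates 1 and 2 and between 6.06 and 6.55 in the other naïve arrays, while the 7 day arrays were at 6.35 to 7.62 and the 14 day arrays at 7.33 to 7.72. Its differences from naïve skin, 0.66 at 14 days and 0.15 at 7 days, were not called (adjusted p = 0.165 and 0.787). Without naïve replicates 1 and 2 its differences were 1.22 at 14 days and 0.71 at 7 days, where 21.1% and 19% of all genes were higher. Those were its highest naïve arrays, so leaving them out was bound to enlarge the differences, and no p value is given. In the fit with the hair score the 7 day difference of Col9a3 was -0.56, where 4.71% of all genes were lower. Its naïve values divide along that same score, so no p value is given for this fit either. Col9a3 was singled out after its values were seen. The other type IX chains, Col9a1 and Col9a2, differed by 0.11 and 0.22 at 14 days and were not called, and 1 of 5 measured chondrocyte markers was higher at 14 days.

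The direct comparison of 14 with 7 days called 3 members lower and 2 higher, where 10.1% and 8.86% of all genes were called. Arrays did not overlap for 7 members that were lower and 1 that was higher at 14 days, against 11.6% and 9.07% of all genes. The call counts were 3 lower and 4 higher with each array centred on its own median (7.07% and 14.6% of all genes). They were 3 lower and 1 higher after a further quantile normalization (5.16% and 6.35%). Col5a3 (9.23 to 10.22 at 14 days, 10.30 to 11.70 at 7 days) fell by 1.29 (adjusted p = 0.00539). Col8a1 (7.19 to 7.71 and 7.66 to 9.85) fell by 1.23 (adjusted p = 0.0149), and 7 day replicate 1 lay within the 14 day range. Col6a3 (10.63 to 11.21 and 11.41 to 12.71) fell by 1.06 (adjusted p = 0.0375), a call lost without 7 day replicate 2, 3 or 4 or 14 day replicate 2, 3 or 5 (highest adjusted p = 0.0958). Col12a1 and Col5a2 differed by -0.91 and -0.86 and were not called (adjusted p = 0.0528 and 0.151). The difference of Col12a1 was -0.58 without 7 day replicate 4, and it passed without naïve replicate 2 or 7 day replicate 1 or 2 (adjusted p = 0.0449, 0.0434 and 0.0461). Without naïve replicates 4 and 5, both Col12a1 and Col5a2 passed (adjusted p = 0.0429 and 0.0258). Col16a1 and Col17a1 differed by -0.65 and -0.58 (adjusted p = 0.0591 and 0.0671), and for Col12a1, Col16a1 and Col17a1 all 14 day arrays lay below all 7 day arrays. Differences were small for Col1a1 (-0.05), Col1a2 (-0.14), Col3a1 (-0.15), Col4a1 (-0.26), Col4a2 (-0.11) and Col18a1 (-0.22), and somewhat larger for Col5a1 (-0.52), Col6a1 (-0.57), Col6a2 (-0.31), Col7a1 (-0.52), Col14a1 (-0.42) and Col15a1 (-0.35), and none of these passed in limma. Besides Col26a1, Col2a1 was higher at 14 days, by 0.21 (adjusted p = 0.047), but it lay among the 25% of genes with the lowest means and was lost in 10 of the 16 fits with 1 array left out.

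Fibroblast and macrophage markers moved with the rises at 7 days. Of 9 fibroblast markers, 6 were higher at 7 days and 2 at 14 days, and the score was -1.80 to 0.13 in naïve skin, 0.14 to 1.01 at 7 days and -0.10 to 0.30 at 14 days. Of 7 macrophage markers, 6 were higher at 7 days and none at 14 days, with scores of -1.94 to 0.58 in naïve skin, 0.28 to 1.12 at 7 days and -0.11 to 0.20 at 14 days. Of 7 endothelial markers, 5 were higher at 7 days and none at 14 days. The array with the highest fibroblast score, 7 day replicate 4, was the highest 7 day array for all 13 members that rose. The arrays with the lowest scores, naïve replicates 4 and 5, were the lowest naïve arrays for 12 of them. These members were called from the same arrays and are not separate observations. The share of all genes with this pattern was not counted. The part of these cell types in the collagen values was not tested. Skeletal muscle markers were lower at 14 days in 6 of 9, and with the muscle score as a covariate 12 members were higher at 7 days and 1 at 14 days, Col26a1, while none were lower at 14 days (limma) and Col17a1 differed by -0.87 (adjusted p = 0.0529). Over all genes that fit called 7.01% higher at 7 days, and 0.661% higher and 1.25% lower at 14 days.

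For 14 members the arrays carried more than 1 probeset, and at 7 days the probesets of Col11a1, Col6a2 and Col1a1 lay furthest apart. For Col11a1, a fibrillar chain of cartilage that also joins type V fibrils, the median over 3 probesets was near the lowest values on the arrays and its difference at 7 days was 0.14 (adjusted p = 0.115). A single probeset of this gene had a higher mean, of 6.34. It was at 7.88, 5.65, 7.95, 7.92 and 6.49 at 7 days, against 5.11 to 6.18 in naïve skin, and was higher by 1.61 (standard error 0.36, adjusted p = 0.0153 over probesets tested singly), and it differed by 0.88 at 14 days (adjusted p = 0.0867). The brighter probeset of Col6a2 was higher by 1.51 at 7 days (adjusted p = 0.0309) and the dimmer differed by 0.44 (adjusted p = 0.139). The probesets of Col1a1 differed from naïve skin by 0.96 and 0.46 at 7 days, and those of Col18a1 differed from naïve skin by 0.53 and 0.17 at 14 days. Col11a1 was singled out after its values were seen.

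**Figure D5:**
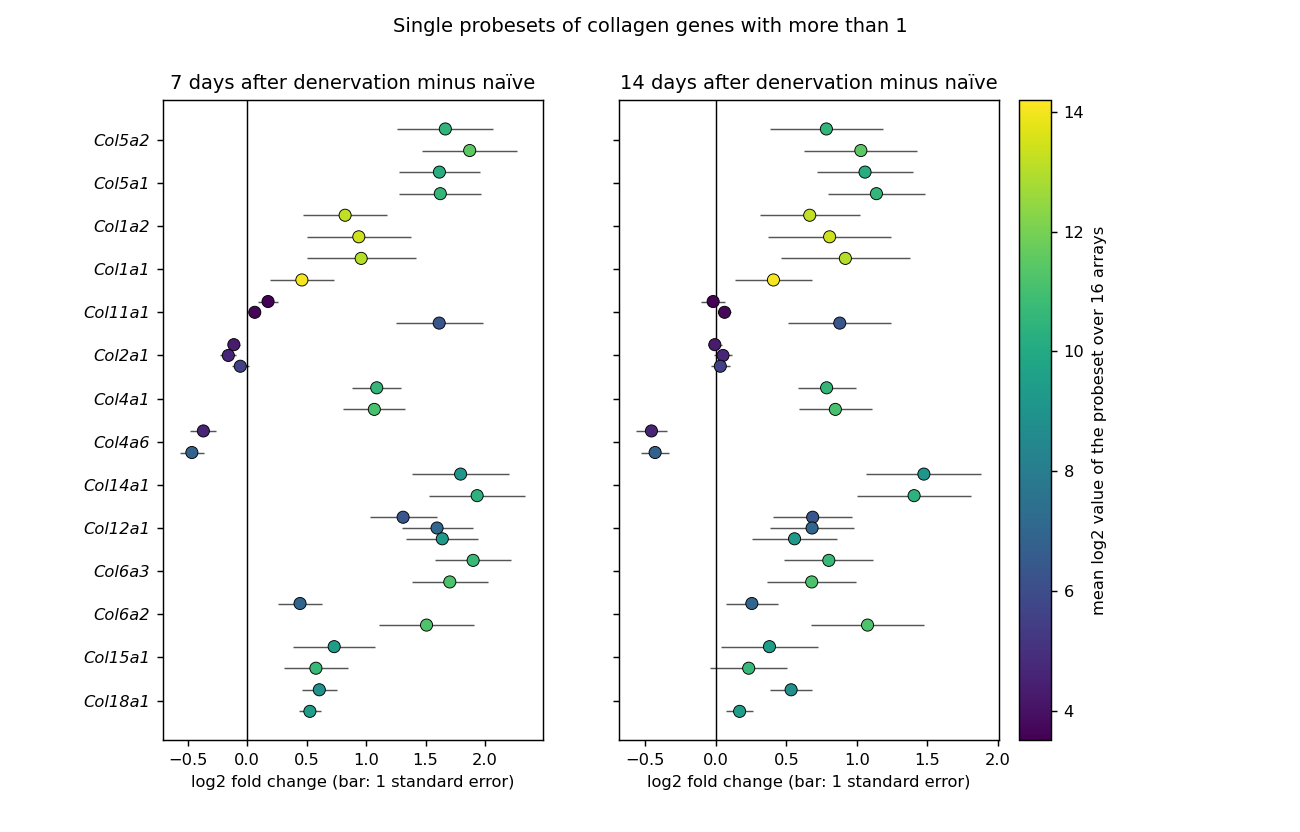
Log2 fold change against naïve skin at 7 days (left) and 14 days (right) for each probeset of the 14 collagen genes with more than 1, with 1 standard error, and colour for the mean value of the probeset over all arrays. The brightest probeset of Col11a1 lies at 1.61 at 7 days while its other probesets lie at 0.17 and 0.06, and those of Col6a2 lie at 1.51 and 0.44.

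The genes that make, bind and break down collagen were counted in the same comparisons. Of 21 measured genes of collagen biosynthesis, 15 were higher at 7 days and none lower. P4ha3, a catalytic subunit of prolyl 4-hydroxylase, which hydroxylates prolines so that the triple helix is stable, was higher by 2.59 (adjusted p = 0.000431). Bmp1, the protease that trims the C-propeptide of fibrillar procollagens, was higher by 1.30 (adjusted p = 0.00229), and Colgalt1, which adds galactose to hydroxylysine, by 0.74 (adjusted p = 0.0025). At 14 days 4 were higher and 1 lower. Those higher were Bmp1 (0.66), Loxl1 (1.03), Loxl2 (1.32) and P4ha3 (0.94, adjusted p = 0.0353), where Loxl1 and Loxl2 encode lysyl oxidases that crosslink collagen and elastin. Mia3, which helps export procollagen from the endoplasmic reticulum, was the gene that fell, by 0.19 (adjusted p = 0.0436). At 14 against 7 days 13 of the 21 were lower and none higher, led by P4ha3 at -1.65, Colgalt1 at -0.60 and P3h1, a prolyl 3-hydroxylase, at -0.88.

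Of 6 measured collagen receptor genes, Itgb1, the shared beta chain of the collagen-binding integrins, was higher at 7 days by 0.65 (adjusted p = 0.00505) and differed by -0.76 at 14 against 7 days (adjusted p = 0.00263). Itga1, the alpha chain of an integrin that binds type IV collagen, was higher at 14 days by 0.84 (adjusted p = 0.0221). The list of 12 measured genes of collagen breakdown also holds the metalloproteinase inhibitors Timp1, Timp2 and Timp3. Of these 12 genes, 5 were higher at 7 days and 4 at 14 days, and none were lower against naïve skin. Timp1 was among those higher at both times, and Timp2 and Timp3 at neither. Timp1, an inhibitor of matrix metalloproteinases, was higher by 3.95 at 7 days and 1.77 at 14 days, and differed by -2.18 at 14 against 7 days (adjusted p = 0.000191, 0.0095 and 0.00527). Fap, a surface protease of activated fibroblasts, was higher by 1.51 and 1.14 at 7 and 14 days, and Mmp14, a membrane-bound collagenase, by 1.15 at 7 days. Mmp9, a gelatinase, was higher by 0.20 at 14 days, with means of 4.32 at 14 days and 4.12 in naïve skin that lay near the lowest values on the arrays.

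The remaining members showed small differences. In all, 22 of the 41 collagen genes were called in neither comparison with naïve skin, and 11 members lay among the 25% of genes with the lowest means. The fibrillar chains Col2a1, Col11a2, Col24a1 and Col27a1 differed by -0.16 to 0.29 at 7 days, and Col27a1, the highest of them, was at 7.12 to 7.88 at 7 days and 6.78 to 7.32 in naïve skin. The transmembrane chains Col13a1, Col23a1 and Col25a1 differed by -0.12 to -0.05 at 7 days and by -0.16 to 0.09 at 14 days. Col20a1, a FACIT chain, differed by -0.18 at 7 days (adjusted p = 0.109) and Col19a1 by 0.48 (adjusted p = 0.172).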

How the data were processed

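The authors hybridized polyA RNA of each sample to 1 array and deposited RMA (robust multi-array average) expression values on the log2 scale. R 3.0.1 is named in the submitters' processing notes, with the RMA software version not given in the sources used here. Of 31099 probesets, 57 controls, 9780 with no gene and 436 with several genes were left out, and the 20826 others were collapsed to the median per gene (14217 genes; 58 probesets for the 41 collagen genes). Symbols were updated through Entrez identifiers in RefSeq (GRCr8), which also gave the sequences. In R 4.3.3, limma 3.58.1 fitted 1 mean per group over all 16 arrays, with default moderation and Benjamini-Hochberg adjustment over all genes at 0.05. The procedure was tested on simulated data, drawn as independent normal values with the same spread of a gene in all groups. That test does not cover the wider spread of the naïve arrays or arrays that deviate in many genes together. A marker score averages, over the genes of a list, the deviation of an array from the 16-array mean. The labels give no batches. The number of arrays limits the precision, and nothing says more of the replicates than that they are separate samples, so p values measure the spread between these.

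The members named are all that passed, and Col1a1, Col1a2, Col3a1, Col5a1, Col5a2, Col4a1, Col4a2, Col12a1, Col14a1, Col6a1, Col6a2, Col6a3, Col7a1, Col17a1, Col15a1 and Col18a1 in every comparison. Further members were named after their values were seen. For each pathway list and comparison, up to 3 genes with the smallest p were named, and at 14 days also the other biosynthesis genes that passed, P4ha3 and Mia3. Members and lists were chosen with earlier results of these data known. Alternatives changed probeset collapse, scaling, dim genes, array weights, moderation, arrays fitted, covariates, a replicate block and thresholds.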

Additional observations from a re-analysis of the deposited data

Results flagged for a closer look

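Several arrays stood far from the others of their group in single collagen genes. Of 72 groups of arrays examined for 24 named members, 5 held such an array, and chance gives about 1 in 20. The 7 day replicate 4 was at 9.26 for Col12a1 (next 7.81), 11.08 for Col16a1 (next 10.14) and 9.72 for Col18a1 (next 9.40). The 14 day replicate 5 was at 13.64 for Col1a1 (next 13.79), and naïve replicate 5 was at 12.17 for Col3a1 (next 13.04).

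The limma test of 14 against 7 days called 5 members, 3 lower and 2 higher, where 10.1% and 8.86% of all genes were called. The log2 differences of 14 minus 7 days were -1.29 for Col5a3, -1.23 for Col8a1, -1.06 for Col6a3, 0.55 for Col26a1 and 0.21 for Col2a1. The calls of Col2a1 and Col6a3 were lost in 10 and 6 of the 16 fits with 1 array left out. The causes of these differences were not tested.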

How the results depend on the processing

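Of 740 alternative values of named collagen genes, leaving out of account the fits without 1 array and single probesets, 639 kept direction and side of the threshold, 72 no longer passed, 25 newly passed and 4 changed sign. These values include named genes that were not called at first and so could not be lost. The fit over all arrays called 16 members at 7 days, 12 at 14 days and 5 at 14 against 7 days. Sign changes concerned values near 0 or values not called. Col15a1 was at -0.14 at 14 days against naïve skin without naïve replicates 4 and 5. Col1a1 at 14 against 7 days was at 0.0079 with arrays centred on their medians, at 0.031 after a further quantile normalization and at -0.13 to 0.0087 with single arrays left out (the highest without 7 day replicate 4), and Col4a2 was at 0.045 after that normalization.

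The share of all genes called in the same fit stands in brackets. Members higher at 7 days (13) were 5 with only the groups compared in the fit (1.86%) and 7 at an adjusted p of 0.01 (2.37%). Members lower at 7 days (3) were 6 with arrays centred on their medians (10.5%), 8 with array weights (12%), 8 without naïve replicates 1 and 2 (16.4%) and 1 with the muscle score as covariate (2.79%). They were 0 with only the groups compared (0.218%), without naïve replicates 4 and 5 (0.324%), at 0.01 (0.267%), or with a log2 fold change of at least 1 required (0.0844%). Members higher at 14 days (8) were 5 with only the groups compared (6.81%), 4 without naïve replicates 4 and 5 (1.77%), 1 with the muscle score (0.661%), 0 with the hair follicle score (0.45%), 2 at 0.01 (1.11%) and 3 with the fold required (1.11%). Members lower at 14 days (4) were 8 with array weights (24%), 0 with the muscle score (1.25%), 1 with the hair follicle score (1.24%) and 2 with the fold required (1.85%). Members higher at 14 than at 7 days (2) were 1 with the brightest probeset of each gene (8.55%), 4 with centred arrays (14.6%), 1 after quantile normalization (6.35%), 4 with array weights (15.9%), 1 at 0.01 (1.58%), 0 with the fold required (0.281%) and 0 without the dimmest 25% of genes. Members lower at 14 than at 7 days (3) were 5 with the brightest probeset (12.7%), 8 with array weights (18.2%), 10 with only the groups compared (17.7%), 5 with the muscle score (10.2%), 8 without naïve replicates 1 and 2 (16.2%), 7 without naïve replicates 4 and 5 (12.9%), 1 at 0.01 (2.31%) and 5 with probesets tested singly. The causes of these changes were not tested.

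With single arrays left out, 10 to 13 members were higher at 7 days and 1 to 4 were lower. Over all genes, these fits called 3.72% to 10.6% higher and 0.703% to 8.38% lower. At 14 days 2 to 10 were higher (10 without naïve replicate 3) and 4 to 5 lower. The shares of all genes there were 3.14% to 15.1% and 8.5% to 18.9%. Between 14 and 7 days 1 to 2 were higher and 2 to 6 lower, where 4.23% to 10.2% and 5.21% to 11.7% of all genes were called. Only 1 was higher without naïve replicate 4 or 6, 7 day replicate 1, 2, 3 or 4, or 14 day replicate 2, 3 or 5. The lower count was 6 without 7 day replicate 1 and 5 without naïve replicate 1 or 2. The count lower at 7 days was 1 without naïve replicate 4, 5 or 6 or 7 day replicate 1, 3 or 4. In those fits 0.703% to 2.22% of all genes were lower.

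The deviations of 15 same-numbered pairs correlated at -0.552 to 0.583, and 8 exceeded 0.1. Pairs with different numbers were not compared, so these values cannot tell whether the replicate numbers pair the samples. With the replicate number as a block, 0 members were lower at 7 days (0.823% of all genes), 4 were higher at 14 days (2.58%) and 1 was higher at 14 than at 7 days (7.77%).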

Other observations

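Some chains that were not called spread widely within a group. Col19a1, a FACIT chain, was at 6.19, 6.29 and 5.93 in 7 day replicates 1, 3 and 5 but at 5.14 and 5.43 in replicates 2 and 4, while naïve arrays ran from 5.10 to 5.78. Col6a6 showed the reverse, at 7.45 and 6.93 in 7 day replicates 2 and 4 and at 5.74 to 5.90 in the others. Col8a2 was at 6.89 in 7 day replicate 5 and at 7.78 to 8.21 in the other 7 day arrays. These values are given without a test.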
